A study of Mus musculus with 12 samples.

Results

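The interferon-stimulated genes are the genes that cells switch on when interferon or a viral nucleic acid is sensed, and 37 of them were followed in primary mouse cardiac fibroblasts after knockdown of the linker histone H1.0 and treatment with TGF-β. They were chosen by name and not by a cut on their values, but with earlier results of these data known. All 37 passed the minimum of 10 estimated counts over the 12 libraries, and they stand among 18028 genes tested and 35523 genes in the files. None of the 37 was called higher after transfection with H1.0 siRNA, while 12 were called lower in vehicle-treated cells and 22 in TGF-β-treated cells, where 16.2% and 16% of all genes tested were called lower and 17.4% and 17.6% higher. TGF-β was also followed by lower calls, 8 in scramble cells and 20 in knockdown cells, against 13% and 12.6% of all genes. These calls come from a test in which the replicate number is a block, and without the block a single gene, Ifit2, kept them in 3 of the 4 comparisons. The members called lower were then 2.7% and 2.7% for the siRNA and 0% and 2.7% for TGF-β. Of all genes 11.2% and 11.3%, then 7.94% and 6.6%, were called lower without the block.

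The cells were wild-type cardiac fibroblasts isolated from hearts of adult C57BL/6J mice of both sexes, grown to near confluence and kept in low serum before treatment. The 4 groups of 3 libraries were scramble siRNA with vehicle, scramble siRNA with 10 ng/ml TGF-β, siRNA against histone H1.0 with vehicle, and that siRNA with 10 ng/ml TGF-β. The study describes its replicates as separate cell isolations or animals, and the pooling of hearts was not given in the sources used here. Every library came from cells that had taken up a small RNA with a lipid reagent, and no untransfected group was analysed here, so a response that both siRNAs share cannot be seen in these comparisons. A response to the scramble siRNA or to the H1.0 siRNA alone cannot be told apart in them from an effect of lower H1.0.

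Interferons of type I bind the receptor IFNAR1-IFNAR2, the kinases JAK1 and TYK2 phosphorylate STAT proteins, STAT2 among them, and these join IRF9 in a complex that binds the interferon-stimulated response element (ISRE) in promoters. Double-stranded RNA is recognised in the cytosol by RIG-I (Ddx58), MDA5 (Ifih1) and the kinase PKR (Eif2ak2), and in endosomes by TLR3, which is why short RNAs brought in by transfection can switch on the same genes. Fibroblasts express these sensors and answer with interferon β, chemokines and antiviral effectors. Several members keep their own signal going, IRF7 by driving interferon genes and STAT2 and IRF9 as parts of the complex, while USP18 closes the loop by blocking the receptor.

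The promoters of members that hold at least 2 ISRE matches wholly within the 150 bases before the start site are printed as examples of this element. RefSeq windows on GRCm38.p6, from 250 bases before to 50 bases after each start site, were found for 29 of the 37 members, and 8 had none. The ISRE was searched on both strands as 2 copies of GAAA separated by 2 bases, and overlapping matches were counted. It was found in the windows of 14 of the 29 members (41.2% of their 34 windows), against 3.44% of all 32851 windows. The interferon γ element GAS, searched as TTCNNNGAA, which reads alike on both strands, was found for 6 members (17.6% of their windows, against 8.3% of all windows). These 150 bases follow for 5 members, 5′ to 3′ on the gene's strand, with ISRE matches in capitals.
Ifit1 (chr19:34640739-34640888, plus strand): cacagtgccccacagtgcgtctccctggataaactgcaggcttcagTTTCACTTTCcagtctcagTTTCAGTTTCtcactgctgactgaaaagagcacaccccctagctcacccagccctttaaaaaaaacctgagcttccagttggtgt
Isg15 (chr4:156200819-156200968, minus strand): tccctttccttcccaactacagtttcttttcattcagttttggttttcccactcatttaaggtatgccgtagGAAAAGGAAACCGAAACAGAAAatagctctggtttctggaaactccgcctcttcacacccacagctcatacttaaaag
Oas1a (chr5:120907526-120907675, minus strand): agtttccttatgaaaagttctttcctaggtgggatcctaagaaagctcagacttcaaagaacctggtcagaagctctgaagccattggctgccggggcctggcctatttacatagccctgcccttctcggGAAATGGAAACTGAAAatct
Bst2 (chr8:71537473-71537622, minus strand): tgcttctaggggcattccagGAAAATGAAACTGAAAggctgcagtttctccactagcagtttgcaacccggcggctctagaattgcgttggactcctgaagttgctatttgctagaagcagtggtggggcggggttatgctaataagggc
Gbp3 (chr3:142559894-142560043, plus strand): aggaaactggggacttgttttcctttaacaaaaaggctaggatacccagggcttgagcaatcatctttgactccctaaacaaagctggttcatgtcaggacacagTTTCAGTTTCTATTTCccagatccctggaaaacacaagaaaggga

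In Isg15 the 3 matches lay from 56 to 78 bases before the start site and in Oas1a the 2 matches lay from 4 to 20 bases before it, overlapping in both genes. The window of Ifit3 also holds 2 matches, but 1 of them starts farther than 150 bases before the start site, so it is not printed. Of the members called lower with siRNA under TGF-β, 18 had a window and 9 of these held an ISRE match, and of the other members 11 had a window and 5 held one. A match says only that these letters stand in the window.

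Depth ranged from 19.9 to 36.3 M estimated counts (median 24.2 M), and all 3 knockdown libraries with TGF-β and knockdown library 3 with vehicle were deeper than the other libraries. With every library thinned to the lowest total, the calls stayed at 12, 22, 8 and 20. The targeted gene H1f0 (chromosome 15 of GRCm38, 79028450 to 79030504) had normalized counts, on the scale of the mean library, of 2515, 3033 and 2648 in scramble cells with vehicle, 2832, 2922 and 2806 with TGF-β, then 980.1, 1075 and 600.4 in knockdown cells with vehicle and 843, 876 and 510.3 in those given TGF-β, each set in the order of replicate numbers 1, 2 and 3. Every knockdown library lay below every scramble library, and those of number 3 were the lowest. For H1f0 the log2 fold with the siRNA came to -1.66 (SE 0.16, adjusted p = 1.1e-05) in vehicle-treated cells and -1.98 (SE 0.16, adjusted p = 3.4e-06) under TGF-β.

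**Figure D1:**
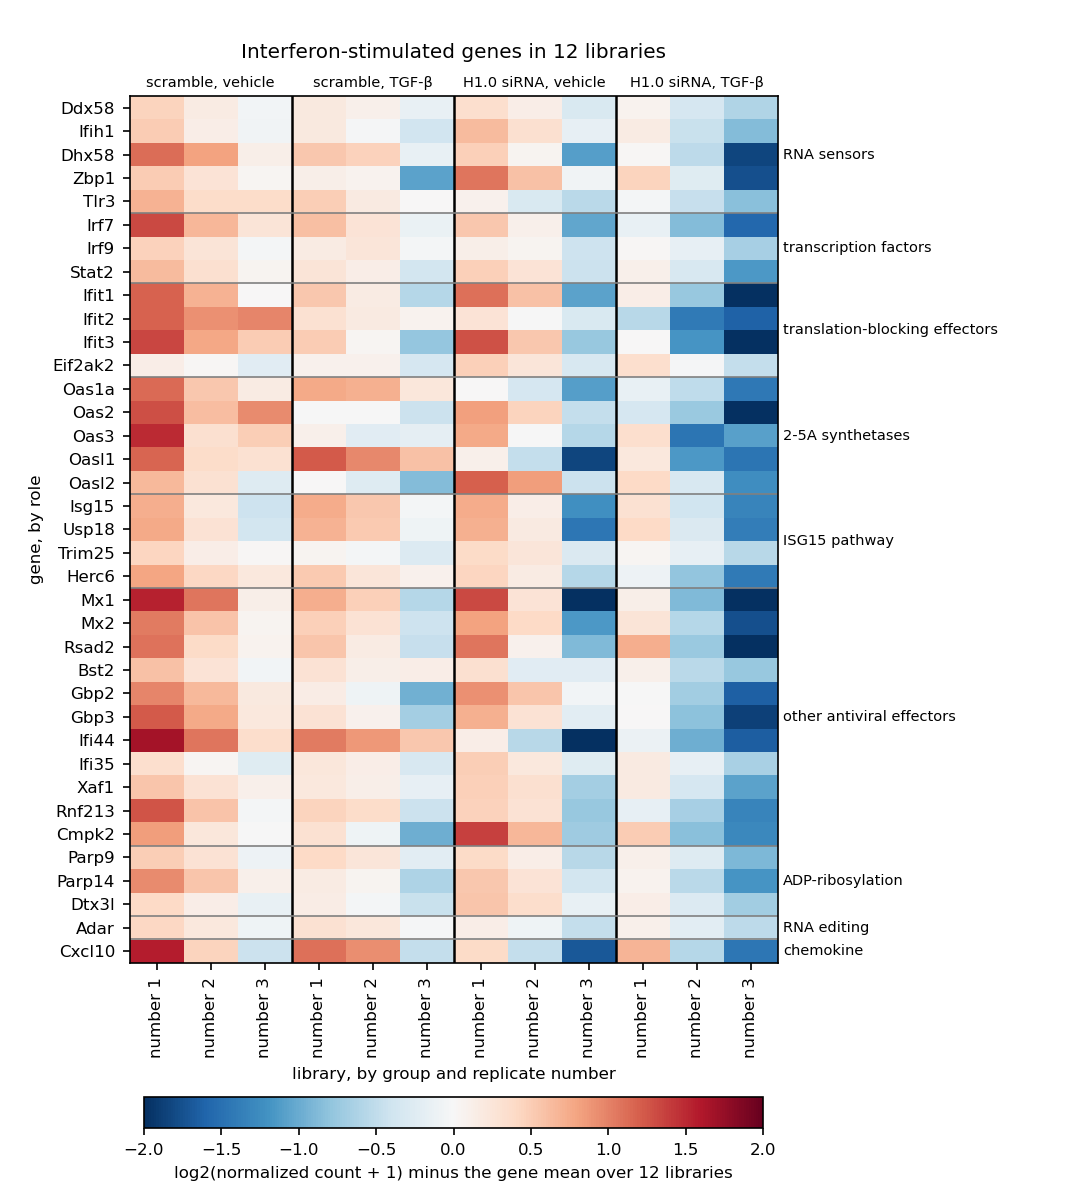
Each row is 1 of the 37 interferon-stimulated genes, ordered by role, and each column 1 of the 12 libraries, grouped by condition. Colour gives log2(normalized count + 1) less the gene's mean over the 12 libraries, and the libraries numbered 1 are the highest of their group for at least 36 of the 37 genes.

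The calls of the RNA sensors differed in the comparison of H1.0 siRNA with scramble siRNA, and differences between sensors were not tested. Tlr3, the endosomal sensor of double-stranded RNA (chromosome 8, 45395665 to 45411080), had normalized counts of 1267, 1011 and 1009.6 in scramble cells with vehicle, 1105, 894 and 792 with TGF-β, then 832, 633 and 542 in knockdown cells with vehicle and 760.3, 568 and 440.4 in those given TGF-β. The knockdown libraries did not overlap the scramble libraries under either treatment. Tlr3 had an siRNA log2 fold of -0.73 (SE 0.08, adjusted p = 3e-05) in vehicle-treated cells and -0.67 (SE 0.08, adjusted p = 5.1e-05) under TGF-β, and without the replicate block the adjusted p was 0.02 with vehicle and 0.03 with TGF-β. Dhx58, which encodes LGP2, a cytosolic RNA sensor that modulates MDA5 (chromosome 11, 100694884 to 100704271), was measured at 1271, 1019 and 633 in scramble cells with vehicle, 850.2, 807 and 525 with TGF-β, then 817, 608 and 272 in knockdown cells with vehicle and 595, 406 and 162 in those given TGF-β. Each knockdown library lay below the scramble library of its number, although the groups overlapped. Knockdown against scramble gave Dhx58 a log2 fold of -0.85 (SE 0.17, adjusted p = 0.0017) in vehicle-treated cells and -1.03 (SE 0.17, adjusted p = 0.00059) under TGF-β. With vehicle the call was lost without knockdown library 3, where the fold was -0.74, and both calls were lost without the libraries numbered 2 (adjusted p = 0.026 and 0.016).

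Ddx58, which encodes RIG-I (chromosome 4, 40203773 to 40239828), was the most abundant of the sensors in counts, at 7097, 5804 and 4986 in scramble cells with vehicle, 5961, 5544 and 4690.3 with TGF-β, then 6538, 5682 and 4192 in knockdown cells with vehicle and 5423, 4119.6 and 3409 in those given TGF-β. In every pair of the same number the knockdown library was the lower, by little with vehicle. For Ddx58 the log2 fold with the siRNA came to -0.13 (SE 0.07, adjusted p = 0.15) in vehicle-treated cells and -0.34 (SE 0.07, adjusted p = 0.002) under TGF-β, so the gene was called under TGF-β and not with vehicle, and that call was lost without scramble library 2 or 3 or knockdown library 2 given TGF-β (-0.32 to -0.29). Ifih1, which encodes MDA5, had normalized counts of 2844, 2208 and 1903 in scramble cells with vehicle, 2291, 1975 and 1546 with TGF-β, then 3111, 2499 and 1797 in knockdown cells with vehicle and 2253, 1465 and 1097 in those given TGF-β. It was higher in knockdown than in scramble cells in 2 of 3 numbers with vehicle and lower in all 3 with TGF-β. Ifih1 had an siRNA log2 fold of 0.08 (SE 0.09, adjusted p = 0.53) in vehicle-treated cells and -0.31 (SE 0.09, adjusted p = 0.013) under TGF-β, and neither was called. Zbp1, a sensor of Z-form nucleic acid that triggers cell death, was at 1317, 1121 and 953 in scramble cells with vehicle, 1001, 971 and 437 with TGF-β, then 1938, 1389.7 and 884 in knockdown cells with vehicle and 1257, 782 and 273 in those given TGF-β. The numbers disagreed on its direction under both treatments, with log2 fold changes for the siRNA of 0.24 (SE 0.23, adjusted p = 0.46) in vehicle-treated cells and -0.15 (SE 0.24, adjusted p = 0.66) under TGF-β.

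All 3 transcription factors of the list were called lower with the siRNA under TGF-β, and Irf7 and Irf9 also with vehicle. Irf7, the factor that drives interferon α genes (chromosome 7, 141262706 to 141266481), had normalized counts of 3645, 2299 and 1744 in scramble cells with vehicle, 2205, 1758 and 1324 with TGF-β, then 2109, 1555 and 704 in knockdown cells with vehicle and 1305, 801 and 490.1 in those given TGF-β. The groups did not overlap under TGF-β, and with vehicle knockdown library 1 lay above scramble library 3. Irf7 had a knockdown-to-scramble log2 fold of -0.87 (SE 0.14, adjusted p = 0.00044) in vehicle-treated cells and -1.11 (SE 0.14, adjusted p = 9.7e-05) under TGF-β, and both calls held when any library or any replicate number was left out. Both were lost without the block, where the adjusted p was 0.16 with vehicle and 0.089 with TGF-β. Irf7 shares 45 exon bases with Phrf1 on the opposite strand, and reads there may belong to either gene, since the strand setting of the counting was not given in the sources used here.

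Irf9, the DNA-binding partner of the STATs (chromosome 14, 55603571 to 55610030), was at 2006, 1747 and 1411 in scramble cells with vehicle, 1637, 1714 and 1414 with TGF-β, then 1575, 1503 and 1086 in knockdown cells with vehicle and 1475, 1299.7 and 917 in those given TGF-β. In every pair the knockdown library was the lower, in overlapping groups. For Irf9 the log2 fold with the siRNA came to -0.32 (SE 0.08, adjusted p = 0.0064) in vehicle-treated cells and -0.39 (SE 0.08, adjusted p = 0.0018) under TGF-β. The vehicle call was lost without any 1 of 7 libraries, all 6 of the vehicle groups among them, with folds from -0.35 to -0.29. Stat2, the transactivating subunit of the complex (chromosome 10, 128270559 to 128292849), had normalized counts of 7558, 6087 and 5065 in scramble cells with vehicle, 5845, 5357 and 3798 with TGF-β, then 6819, 5895 and 3637 in knockdown cells with vehicle and 5256, 3926 and 2209 in those given TGF-β. It was lower with the siRNA in every number, most in the libraries numbered 3. Stat2 had an siRNA log2 fold of -0.23 (SE 0.11, adjusted p = 0.13) in vehicle-treated cells and -0.45 (SE 0.11, adjusted p = 0.0069) under TGF-β. Its call was lost without library 2 or 3 of either TGF-β group and without knockdown library 1 with vehicle, with folds from -0.47 to -0.31, and without the libraries numbered 2. The Irf9 call under TGF-β was lost without scramble library 3 given TGF-β, where the fold was -0.31.

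**Figure D2:**
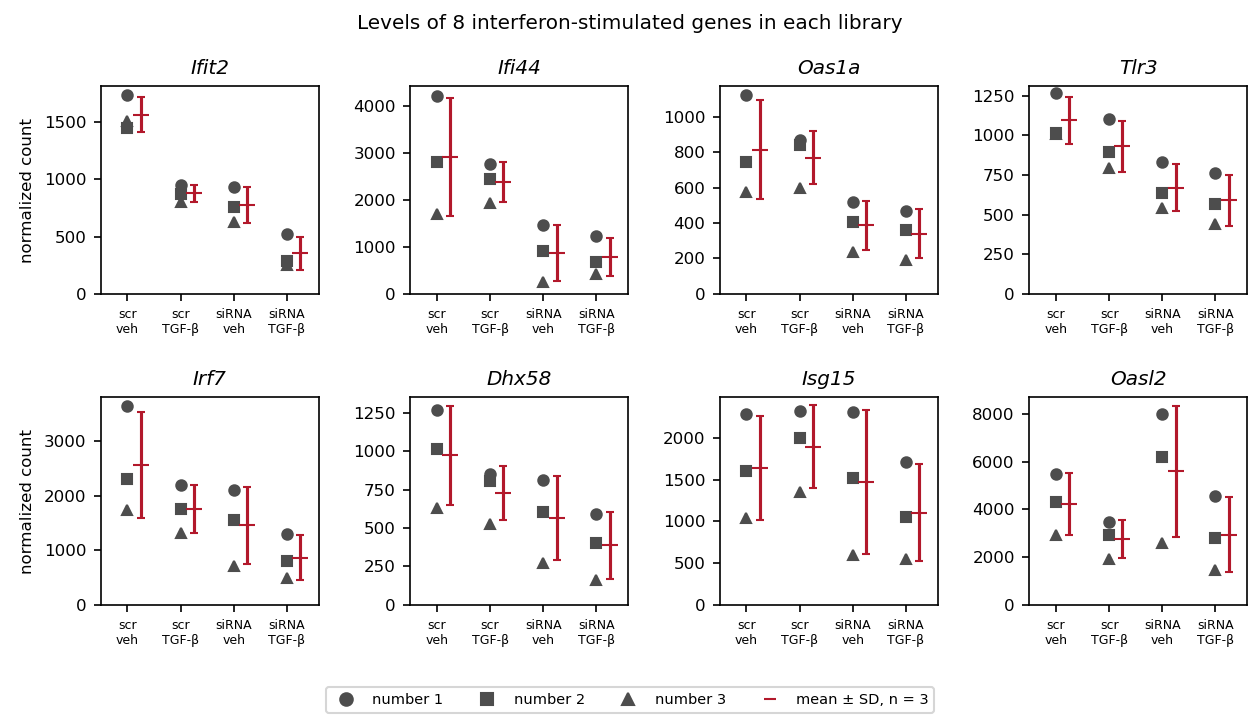
Normalized counts of 8 interferon-stimulated genes are drawn for each library, with the symbol giving the replicate number and the red bar the mean ± SD of 3 libraries, on axes that start at 0. For Ifit2, Ifi44, Oas1a and Tlr3 the knockdown libraries lie below all scramble libraries of the same treatment, and for Isg15 and Oasl2 the groups overlap.

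The IFIT proteins bind viral RNA and block its translation, and their genes Ifit2, Ifit3 and Ifit1 lie in 1 cluster on chromosome 19 between 34550694 and 34650009. Ifit2 had normalized counts of 1738, 1451 and 1512 in scramble cells with vehicle, 955, 877 and 806 with TGF-β, then 936, 764 and 626 in knockdown cells with vehicle and 522, 288 and 252 in those given TGF-β. It was lowest with both treatments, and no pair of groups compared overlapped for the siRNA or for TGF-β. Knockdown against scramble gave Ifit2 a log2 fold of -1.03 (SE 0.14, adjusted p = 0.00012) in vehicle-treated cells and -1.36 (SE 0.15, adjusted p = 2.4e-05) under TGF-β. Ifit2 had a TGF-β log2 fold of -0.83 (SE 0.14, adjusted p = 0.00064) after scramble siRNA and -1.16 (SE 0.14, adjusted p = 9.6e-05) after knockdown. Ifit2 was the single member called without the replicate block, with an adjusted p of 0.0052 and 0.0013 for the siRNA with vehicle and with TGF-β, 0.0048 for TGF-β in knockdown cells and 0.018, which missed the threshold, for TGF-β in scramble cells.

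Ifit1 was spread more widely within each group, at 6164, 4412 and 2743 in scramble cells with vehicle, 3964, 3069 and 1841 with TGF-β, then 5886, 4119 and 1307 in knockdown cells with vehicle and 2999, 1608 and 678 in those given TGF-β. With vehicle, knockdown and scramble libraries were close in numbers 1 and 2 and apart in number 3. For Ifit1 the log2 fold with the siRNA came to -0.39 (SE 0.20, adjusted p = 0.13) in vehicle-treated cells and -0.91 (SE 0.20, adjusted p = 0.0034) under TGF-β. Ifit3 showed a like spread, with 7667, 5221 and 4304 in scramble cells with vehicle, 4337, 3122 and 1776 with TGF-β, then 7358, 4425 and 1792 in knockdown cells with vehicle and 3046, 1347 and 623 in those given TGF-β. The knockdown library was lower in every number and treatment, least in number 1 with vehicle. Ifit3 had an siRNA log2 fold of -0.54 (SE 0.22, adjusted p = 0.071) in vehicle-treated cells and -1.04 (SE 0.23, adjusted p = 0.003) under TGF-β. The calls of both genes under TGF-β were lost without library 2 or 3 of either TGF-β group, with folds from -0.94 to -0.72 for Ifit1 and -0.99 to -0.85 for Ifit3. They were also lost without the block, where the adjusted p was 0.36 for Ifit1 and 0.28 for Ifit3. Their relatives Ifit1bl1 and Ifit3b lie between Ifit3 and Ifit1, and how Salmon divided reads that such genes may share is uncertain. Eif2ak2, which encodes the kinase PKR that halts translation on double-stranded RNA, had normalized counts from 2349 to 4556 over the 12 libraries. Eif2ak2 had a knockdown-to-scramble log2 fold of 0.16 (SE 0.09, adjusted p = 0.17) in vehicle-treated cells and 0.01 (SE 0.09, adjusted p = 0.96) under TGF-β, neither of them called.

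The oligoadenylate synthetases make the second messenger that activates RNase L. Oas1a, on chromosome 5 near Oas2 and Oas3 (120896256 to 120907521), had normalized counts of 1127, 746 and 576 in scramble cells with vehicle, 870.2, 841 and 599 with TGF-β, then 517, 406 and 238 in knockdown cells with vehicle and 466, 363 and 190.3 in those given TGF-β. The knockdown libraries lay below the scramble libraries under both treatments with no overlap. For Oas1a the log2 fold with the siRNA came to -1.09 (SE 0.13, adjusted p = 5.1e-05) in vehicle-treated cells and -1.24 (SE 0.13, adjusted p = 2e-05) under TGF-β, and both calls held without any library or replicate number. Both were lost without the block, where the adjusted p was 0.034 with vehicle and 0.024 with TGF-β. Reads of Oas1a may be shared with its relative Oas1g. Oas2 was at 1573, 989 and 1237 in scramble cells with vehicle, 639, 638 and 478 with TGF-β, then 1136, 881 and 463 in knockdown cells with vehicle and 509.7, 385 and 151 in those given TGF-β. Scramble libraries with vehicle held the highest values, and groups overlapped for the siRNA. Oas2 had an siRNA log2 fold of -0.71 (SE 0.25, adjusted p = 0.038) in vehicle-treated cells and -0.84 (SE 0.26, adjusted p = 0.024) under TGF-β, and neither was called.

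Oasl1, an OAS-like protein without synthetase activity that restrains Irf7 translation, was at low levels of 149, 85.6 and 82.3 in scramble cells with vehicle, 155, 129.6 and 99.9 with TGF-β, then 70.8, 47.4 and 17.7 in knockdown cells with vehicle and 76.8, 29.3 and 23.3 in those given TGF-β. Knockdown and scramble libraries did not overlap under either treatment. Knockdown against scramble gave Oasl1 a log2 fold of -1.32 (SE 0.28, adjusted p = 0.0026) in vehicle-treated cells and -1.70 (SE 0.27, adjusted p = 0.00043) under TGF-β, and with vehicle the call was lost without scramble library 3 (-1.15), without knockdown library 3 (-1.04) and without the libraries of any 1 replicate number. Oasl2, its neighbour on chromosome 5 and an OAS-like protein with a ubiquitin-like tail, had normalized counts of 5492, 4295 and 2912 in scramble cells with vehicle, 3491, 2911 and 1919 with TGF-β, then 7991, 6201 and 2581 in knockdown cells with vehicle and 4575, 2797 and 1470.3 in those given TGF-β. With vehicle, knockdown libraries 1 and 2 were above the scramble libraries of their number and library 3 was below. For Oasl2 the log2 fold with the siRNA came to 0.31 (SE 0.15, adjusted p = 0.12) in vehicle-treated cells and -0.01 (SE 0.15, adjusted p = 0.97) under TGF-β. Without all libraries numbered 3 the vehicle fold was 0.53 (adjusted p = 0.0013), which made Oasl2 the 1 member called higher with the siRNA under any alternative. Oas3 had the lowest level of the 37 per transcript length, 3.00 ± 1.46 TPM (SD, n = 3) in scramble cells with vehicle, and was called in none of the comparisons.

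The genes of the ISG15 pathway attach a ubiquitin-like protein to other proteins or remove it. Isg15, the modifier itself (chromosome 4, 156199424 to 156200818), had normalized counts of 2287, 1603 and 1043 in scramble cells with vehicle, 2329, 2005 and 1349 with TGF-β, then 2314, 1521 and 592 in knockdown cells with vehicle and 1717, 1049 and 555 in those given TGF-β. With vehicle the siRNA libraries were close to the scramble libraries in numbers 1 and 2 and lower in number 3, while with TGF-β they were lower in all 3. Isg15 had an siRNA log2 fold of -0.26 (SE 0.17, adjusted p = 0.25) in vehicle-treated cells and -0.89 (SE 0.17, adjusted p = 0.0015) under TGF-β. Usp18, the protease that removes ISG15 and blocks the receptor, was at 1628, 1180.1 and 753 in scramble cells with vehicle, 1572, 1384 and 914 with TGF-β, then 1589, 1093 and 354 in knockdown cells with vehicle and 1270.0, 792 and 371 in those given TGF-β. Its groups overlapped, and the difference with vehicle was again widest in number 3. Usp18 had a knockdown-to-scramble log2 fold of -0.37 (SE 0.20, adjusted p = 0.18) in vehicle-treated cells and -0.80 (SE 0.20, adjusted p = 0.008) under TGF-β. That call was lost without any 1 of 8 libraries, 5 of the 6 given TGF-β among them, with folds from -0.93 to -0.57, and without the libraries numbered 2. Herc6, the mouse ligase for ISG15, had normalized counts of 1872, 1444 and 1265 in scramble cells with vehicle, 1572, 1284 and 1159.8 with TGF-β, then 1463, 1225 and 734 in knockdown cells with vehicle and 1010.1, 629 and 409 in those given TGF-β. Under TGF-β the knockdown libraries lay below all scramble libraries. For Herc6 the log2 fold with the siRNA came to -0.46 (SE 0.14, adjusted p = 0.02) in vehicle-treated cells and -1.04 (SE 0.14, adjusted p = 0.00014) under TGF-β. Trim25, a ligase that activates RIG-I, ranged from 1865 to 3702. Trim25 had an siRNA log2 fold of -0.08 (SE 0.08, adjusted p = 0.44) in vehicle-treated cells and -0.14 (SE 0.08, adjusted p = 0.17) under TGF-β, and neither was called.

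Among the other antiviral effectors Ifi44, a cytoplasmic protein that restrains proliferation and virus growth (chromosome 3, 151730922 to 151749960), had the widest fold of the list. Its normalized counts were 4213, 2801 and 1699.8 in scramble cells with vehicle, 2756, 2441 and 1933 with TGF-β, then 1456, 904 and 258 in knockdown cells with vehicle and 1232, 681 and 426 in those given TGF-β. All knockdown libraries lay below all scramble libraries, with or without TGF-β. Knockdown against scramble gave Ifi44 a log2 fold of -1.87 (SE 0.27, adjusted p = 0.00018) in vehicle-treated cells and -1.76 (SE 0.26, adjusted p = 0.00027) under TGF-β, and without the block the adjusted p was 0.028 and 0.04. Rnf213, a giant ubiquitin ligase that coats intracellular bacteria (chromosome 11, 119393100 to 119487418), had the highest counts of the list, 38004, 23669 and 15465 in scramble cells with vehicle, 21619.9, 20605 and 11795 with TGF-β, then 21829, 19346 and 9358 in knockdown cells with vehicle and 14211, 10007 and 6350.3 in those given TGF-β. Within each number the knockdown library was the lower, and the groups overlapped. For Rnf213 the log2 fold with the siRNA came to -0.61 (SE 0.11, adjusted p = 0.00088) in vehicle-treated cells and -0.85 (SE 0.11, adjusted p = 9e-05) under TGF-β. Its adjusted p without the block was 0.28 with vehicle and 0.15 with TGF-β.

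Bst2, which encodes tetherin, a membrane protein that holds virions at the cell surface (chromosome 8, 71534255 to 71537456), was the highest member per transcript length, at 387 ± 88.9 TPM (SD, n = 3) in scramble cells with vehicle and 225 TPM in knockdown cells with TGF-β. In normalized counts it was at 3961, 3192 and 2537 in scramble cells with vehicle, 3217, 2869 and 2897 with TGF-β, then 3316, 2265 and 2274 in knockdown cells with vehicle and 2838, 1817 and 1567 in those given TGF-β. The groups overlapped with vehicle and not with TGF-β. Bst2 had an siRNA log2 fold of -0.30 (SE 0.11, adjusted p = 0.042) in vehicle-treated cells and -0.58 (SE 0.11, adjusted p = 0.0013) under TGF-β. Gbp3, a guanylate-binding GTPase that attacks pathogen vacuoles, had normalized counts of 3895, 2812 and 1929.5 in scramble cells with vehicle, 2047, 1769 and 1044 with TGF-β, then 2729, 2035 and 1446 in knockdown cells with vehicle and 1682, 939.5 and 459 in those given TGF-β. Every knockdown library was below the scramble library of its number. Gbp3 had a knockdown-to-scramble log2 fold of -0.46 (SE 0.15, adjusted p = 0.024) in vehicle-treated cells and -0.76 (SE 0.15, adjusted p = 0.0018) under TGF-β, and the call was lost without scramble library 2 given TGF-β (-0.67). The remaining effectors Gbp2, Xaf1, Ifi35, Cmpk2, Mx1, Mx2 and Rsad2 were not called for the siRNA. Of these, Mx2 is annotated as a polymorphic pseudogene. Mx1, of the dynamin-like GTPase family, had wide folds and wide errors, -0.89 (SE 0.30, adjusted p = 0.033) in vehicle-treated cells and -1.17 (SE 0.33, adjusted p = 0.013) under TGF-β. Rsad2, which encodes the radical SAM enzyme viperin, was alike at -0.41 (SE 0.27, adjusted p = 0.25) in vehicle-treated cells and -0.66 (SE 0.28, adjusted p = 0.077) under TGF-β.

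Of the genes for ADP-ribosylation, Parp14 and Parp9 transfer ADP-ribose in interferon signalling and Dtx3l is the ubiquitin ligase partner of PARP9. Parp14 had normalized counts of 5241, 3961 and 2907 in scramble cells with vehicle, 3026, 2824 and 1760.1 with TGF-β, then 3949.5, 3264 and 2105 in knockdown cells with vehicle and 2854, 1864 and 1199 in those given TGF-β. The knockdown library was the lower in each number, in overlapping groups. For Parp14 the log2 fold with the siRNA came to -0.39 (SE 0.09, adjusted p = 0.0046) in vehicle-treated cells and -0.41 (SE 0.09, adjusted p = 0.0036) under TGF-β. Its adjusted p without the block was 0.43 with vehicle and 0.46 with TGF-β. The vehicle call was lost without scramble library 1 or 3 or any knockdown library with vehicle (-0.42 to -0.33), and the other without library 2 or 3 of either TGF-β group (-0.39 to -0.33). Parp9, which shares 458 exon bases with Dtx3l on the opposite strand, was at 2517, 2189 and 1659 in scramble cells with vehicle, 2358, 2115 and 1538 with TGF-β, then 2339, 1952 and 1213 in knockdown cells with vehicle and 1908, 1489 and 955 in those given TGF-β. It was lower with the siRNA in each number, by less with vehicle. Parp9 had an siRNA log2 fold of -0.24 (SE 0.08, adjusted p = 0.029) in vehicle-treated cells and -0.50 (SE 0.08, adjusted p = 0.00041) under TGF-β. Dtx3l had normalized counts of 2564, 2125 and 1755 in scramble cells with vehicle, 2159, 1899 and 1429 with TGF-β, then 2836, 2487 and 1759 in knockdown cells with vehicle and 2137, 1597 and 1203 in those given TGF-β. With the siRNA it was higher in numbers 1 and 2 and level in number 3 with vehicle, and lower in all 3 with TGF-β. Knockdown against scramble gave Dtx3l a log2 fold of 0.13 (SE 0.06, adjusted p = 0.14) in vehicle-treated cells and -0.17 (SE 0.06, adjusted p = 0.053) under TGF-β, and neither was called.

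Cxcl10, a chemokine that draws T cells and a direct target of RNA sensing (chromosome 5, 92346638 to 92348889), had normalized counts of 588, 271 and 146 in scramble cells with vehicle, 428, 379 and 142 with TGF-β, then 257, 142 and 60.6 in knockdown cells with vehicle and 317, 133 and 72.2 in those given TGF-β. The library numbered 1 was the highest in each group, and each knockdown library lay below the scramble library of its number. For Cxcl10 the log2 fold with the siRNA came to -1.13 (SE 0.18, adjusted p = 0.00041) in vehicle-treated cells and -0.97 (SE 0.18, adjusted p = 0.001) under TGF-β. Cxcl10 shares 133 exon bases with Art3 on the opposite strand.

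Adar, which edits adenosine to inosine in double-stranded RNA and so keeps the cell's own RNA from MDA5 (chromosome 3, 89715022 to 89753446), had normalized counts of 4017, 3514 and 2836 in scramble cells with vehicle, 3751, 3537 and 2968 with TGF-β, then 3312, 2859 and 2178 in knockdown cells with vehicle and 3259, 2626 and 2099 in those given TGF-β. Within each number the knockdown library was the lower. Adar had an siRNA log2 fold of -0.32 (SE 0.06, adjusted p = 0.0013) in vehicle-treated cells and -0.38 (SE 0.06, adjusted p = 0.00041) under TGF-β. The interferon-driven long form p150 and the constitutive p110 have transcripts of their own. Summed over its 2 transcripts, p150 was at 42.8, 22.5 and 26.97 TPM in scramble cells with vehicle, 29.2, 26.3 and 16.7 with TGF-β, and in knockdown cells at 31.5, 21.97 and 12.5 without TGF-β, against 24.6, 16.999 and 8.80 under it. The p110 transcript was at 16.4, 28.4 and 11.7 TPM, 22.1, 23.8 and 22.6, 14.2, 18.9 and 15.7, and 17.3, 17.5 and 17.5 in the same order. In each number p150 was lower in knockdown than in scramble cells under both treatments, by means of 21.99 ± 9.49 against 30.8 ± 10.6 TPM with vehicle and 16.8 ± 7.88 against 24.1 ± 6.52 with TGF-β (SD, n = 3). For p110 the knockdown and scramble libraries overlapped with vehicle, and with TGF-β every knockdown library lay below every scramble library. These transcripts share most of their exons, so their TPM values rest on how Salmon divided the reads and were not tested.

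**Figure D3:**
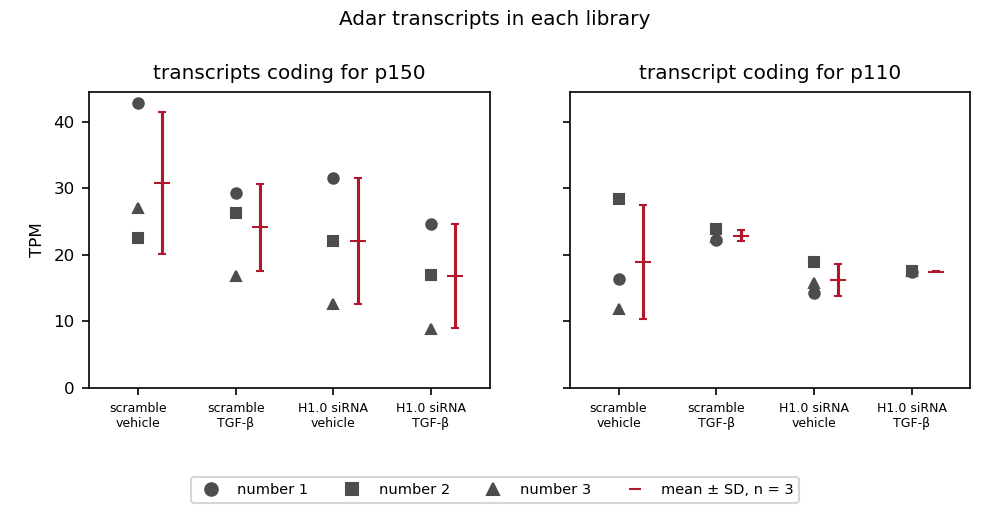
TPM of the transcripts coding for ADAR p150 (left, 2 transcripts summed) and p110 (right, 1 transcript) is drawn for each library, with symbols for the replicate number and a red bar for the mean ± SD of 3 libraries. The p150 points of knockdown cells lie below the scramble point of the same number, from 8.80 to 31.5 TPM against 16.7 to 42.8 TPM, and the p110 points overlap with vehicle and lie apart with TGF-β.

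Over the whole list, the siRNA in vehicle-treated cells gave 12 lower calls (16.2% of all genes tested were called lower and 17.4% higher) and a median log2 fold change of -0.39, against 0.00 for all genes. In TGF-β-treated cells it gave 22 lower calls (16% of all genes lower, 17.6% higher) and a median of -0.66, against 0.03. Without the block Ifit2 alone was called in each, where 11.2% and 11.3% of all genes were called lower. The adjusted p of the other 11 genes then ran from 0.02 to 0.43 with vehicle, and that of the other 21 from 0.024 to 0.46 with TGF-β. No member was called higher in either fit, by DESeq2 or by limma-voom, and none was higher at an unadjusted p under 0.05. All 12 genes called with vehicle were also called with TGF-β, where they make up 54.5% of the calls. The overlap of calls among all genes was not taken, so nothing particular to the members is read from it. Without the libraries numbered 2, the siRNA call with TGF-β was kept by Irf7, Herc6, Tlr3, Ifit2, Oas1a and Rnf213 alone. With vehicle the calls of Irf9, Dhx58, Adar, Parp14 and Oasl1 were lost in that setting. The share of all genes that lost a call there was not taken. The libraries of these comparisons are separate but share 1 estimate of the spread.

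**Figure D4:**
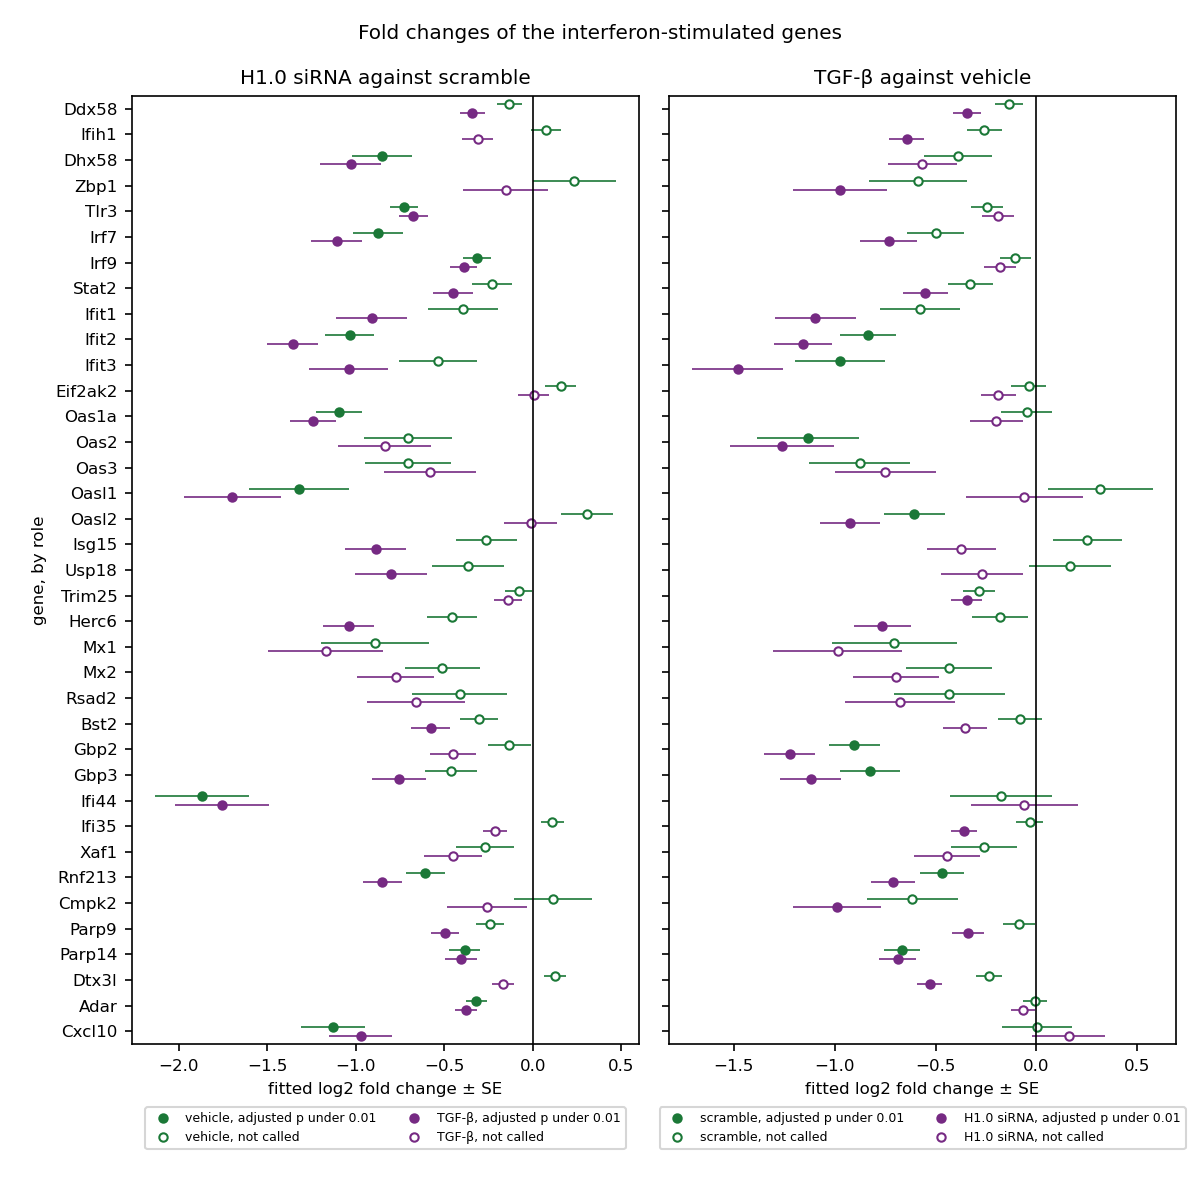
Fitted log2 fold changes with their SE are drawn for the 37 genes by role, on the left for H1.0 siRNA against scramble (green with vehicle, purple with TGF-β) and on the right for TGF-β against vehicle (green in scramble, purple in knockdown cells). Filled points passed an adjusted p of 0.01 in the fit with the replicate block, and every filled point lies below 0.

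TGF-β was set against vehicle within each siRNA. In scramble cells 8 members were called lower and none higher (13% of all genes were called lower and 15.4% higher), with a median log2 fold change of -0.28 against -0.02 for all genes. In knockdown cells 20 were called lower and none higher (12.6% and 14.2% of all genes), with a median of -0.56 against -0.01. The 8 genes of scramble cells were all called in knockdown cells, where they make up 40.0% of the calls. The like overlap among all genes was not taken here either. Without the block none and 1 were called (7.94% and 6.6% of all genes called lower), and no member was higher at an unadjusted p under 0.05 in either fit or was called higher by DESeq2 or limma-voom. The adjusted p of the 8 genes then ran from 0.018 to 0.38, and that of the 19 lost in knockdown cells from 0.039 to 0.43. The scramble count was moved by over 1.5 times by leaving out scramble library 1 or 3 with vehicle (5 and 4 calls) or 1 or 2 with TGF-β (4 and 5). The knockdown count was moved as much by leaving out knockdown library 1 or 2 with vehicle (11 and 12 calls). The share of all genes called in these settings was not taken.

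The IFIT and guanylate-binding genes were among the members called with TGF-β. Ifit3, whose counts are given above, had a TGF-β log2 fold of -0.98 (SE 0.22, adjusted p = 0.0048) after scramble siRNA and -1.48 (SE 0.23, adjusted p = 0.00038) after knockdown. The scramble call of Ifit3 was lost without scramble library 2 or 3 with vehicle or any scramble library with TGF-β, with folds from -1.07 to -0.64. For Ifit1 it was -0.58 (SE 0.20, adjusted p = 0.038) after scramble siRNA and -1.10 (SE 0.20, adjusted p = 0.0013) after knockdown, called in knockdown cells alone. Gbp2, a guanylate-binding GTPase (chromosome 3, 142620602 to 142638008), had normalized counts of 2219.6, 1767 and 1293 in scramble cells with vehicle, 1248, 1063 and 583 with TGF-β, then 2135, 1669 and 1086 in knockdown cells with vehicle and 1129, 699 and 365 in those given TGF-β. Scramble libraries with TGF-β lay below those with vehicle without overlap. For Gbp2 the log2 fold with TGF-β came to -0.90 (SE 0.13, adjusted p = 0.00021) after scramble siRNA and -1.22 (SE 0.13, adjusted p = 2.6e-05) after knockdown. Gbp3, its neighbour, changed alike, by -0.83 (SE 0.15, adjusted p = 0.0011) after scramble siRNA and -1.12 (SE 0.15, adjusted p = 0.00016) after knockdown.

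Oas2 and Oasl2 were called with TGF-β and not with the siRNA. Oas2, whose fold was the widest of the 37 genes in scramble cells, had a TGF-β log2 fold of -1.13 (SE 0.26, adjusted p = 0.0044) after scramble siRNA and -1.26 (SE 0.26, adjusted p = 0.0025) after knockdown. Its scramble call was lost without scramble library 1 or 3 with vehicle or 1 or 2 with TGF-β (-1.21 to -0.77), and its knockdown call without knockdown library 1 or 2 with vehicle (-1.17 to -1.16). The TGF-β fold of Oasl2 was -0.60 (SE 0.15, adjusted p = 0.008) after scramble siRNA and -0.92 (SE 0.15, adjusted p = 0.00058) after knockdown. In scramble cells this call was lost without any 1 of 7 libraries, 5 of the 6 scramble libraries among them, with folds from -0.69 to -0.46. Oas1a, Oasl1, Ifi44, Tlr3, Adar and Cxcl10, all called with the siRNA, were not called with TGF-β in either cell state. For Oas1a the TGF-β fold was -0.05 (SE 0.13, adjusted p = 0.8) after scramble siRNA and -0.20 (SE 0.13, adjusted p = 0.28) after knockdown. For Ifi44 it was -0.17 (SE 0.25, adjusted p = 0.64) after scramble siRNA and -0.06 (SE 0.27, adjusted p = 0.89) after knockdown. Over the list 11 members were called in an siRNA comparison and in no TGF-β comparison, and 9 the other way around. The share of all genes split in this way was not taken, so nothing particular to the members is read from these counts. A call in 1 comparison and not in another is no test of their difference.

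Parp14 and Rnf213, with Ifit2, were the 3 members called lower in all 4 comparisons, and the share of all genes so called was not taken. Parp14 had a TGF-β log2 fold of -0.67 (SE 0.09, adjusted p = 0.00017) after scramble siRNA and -0.69 (SE 0.09, adjusted p = 0.00014) after knockdown. For Rnf213 it was -0.47 (SE 0.11, adjusted p = 0.0053) after scramble siRNA and -0.71 (SE 0.11, adjusted p = 0.0004) after knockdown, and the scramble call was lost without library 1 or 3 of either scramble group (-0.52 to -0.35) and without the libraries numbered 1 (-0.30, adjusted p = 0.099). Called with TGF-β in knockdown cells alone were also the sensors Ddx58 (-0.34), Ifih1 (-0.64) and Zbp1 (-0.97), the factors Irf7 (-0.73) and Stat2 (-0.55), and Herc6, Trim25, Parp9, Dtx3l, Ifi35 and Cmpk2. Cmpk2, a mitochondrial nucleotide kinase next to Rsad2 on chromosome 12, had normalized counts of 647, 421 and 359 in scramble cells with vehicle, 447, 338 and 183 with TGF-β, then 932, 571 and 220.4 in knockdown cells with vehicle and 511, 201 and 147 in those given TGF-β. It was lower with TGF-β in every number, while its siRNA direction differed between numbers. For Cmpk2 the log2 fold with TGF-β came to -0.61 (SE 0.23, adjusted p = 0.051) after scramble siRNA and -0.99 (SE 0.22, adjusted p = 0.0043) after knockdown. Ifi35, a regulator of innate signalling, was at 1479, 1199 and 989.9 in scramble cells with vehicle, 1369.9, 1279.5 and 933 with TGF-β, then 1645, 1357 and 991 in knockdown cells with vehicle and 1329, 1049 and 749 in those given TGF-β. Its values with TGF-β and with vehicle overlapped in both cell states. Ifi35 had a TGF-β log2 fold of -0.03 (SE 0.07, adjusted p = 0.73) after scramble siRNA and -0.36 (SE 0.07, adjusted p = 0.0013) after knockdown. Trim25 was at 3702, 3011 and 2783 in scramble cells with vehicle, 2834, 2663 and 2279.9 with TGF-β, then 3583, 3247 and 2254 in knockdown cells with vehicle and 2809, 2454 and 1865 in those given TGF-β. It was lower with TGF-β in every number, in overlapping groups. For Trim25 the log2 fold with TGF-β came to -0.28 (SE 0.08, adjusted p = 0.013) after scramble siRNA and -0.34 (SE 0.08, adjusted p = 0.0044) after knockdown. Of the calls made in knockdown cells alone, single libraries ended those of Zbp1 (any 1 of 8), Trim25 (5), Ddx58, Parp9 and Cmpk2 (4 each), Irf7 (3), Stat2 (2) and Ifi35 (1), and knockdown library 1 with vehicle was one of them each time. Folds then ran from -1.03 to -0.68 for Zbp1, -0.37 to -0.28 for Trim25, -0.33 to -0.29 for Ddx58, -0.33 to -0.28 for Parp9, -0.97 to -0.80 for Cmpk2, -0.70 to -0.60 for Irf7 and -0.54 to -0.50 for Stat2, and that of Ifi35 was -0.33. Over the 4 comparisons 37 of the 62 calls held without any single library, and 20 held without the libraries of any replicate number. The like shares of the calls of all genes were not taken.

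The interaction asks whether the TGF-β effect differed between knockdown and scramble cells. No member passed it, where 0.655% of all genes did, and 6 had an unadjusted p under 0.05, all with a TGF-β effect more negative in knockdown cells. DESeq2 and limma-voom, run on the same libraries with the block, also called none, with 6 at an unadjusted p under 0.05 in each. In the edgeR fit without the block 0 members were under it. The share of all genes at an unadjusted p under 0.05 was not taken. The median over the 37 was -0.26, against 0.02 for all genes. The interaction was -0.59 (SE 0.20, adjusted p = 0.15) for Herc6 and -0.38 (SE 0.12, adjusted p = 0.12) for Ifih1. The larger number of calls under TGF-β, or in knockdown cells, is therefore not shown to be a difference for any single gene.

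The replicate numbers set much of the spread. The library numbered 1 held the highest value of its group for 37, 36, 37 and 37 of the 37 genes in scramble cells with vehicle and with TGF-β and in knockdown cells with vehicle and with TGF-β. The library numbered 3 held the lowest for 34, 35, 36 and 36. Among all genes tested both held for 15.5% to 20.8%. The median gap between libraries 1 and 3 over the members was from 0.62 to 1.41 on the log2 scale, against median folds from -0.66 to -0.28 in the 4 comparisons. The labels do not say what a number shares beyond being a replicate. Which cells, days or animals stand behind the numbers, and their part in these results, was not tested.

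Within numbers, log2 ratios of normalized counts + 1 were taken. With vehicle the median siRNA ratio of the 37 genes was -0.22 in number 1, -0.22 in number 2 and -0.78 in number 3, and with TGF-β it was -0.22, -0.75 and -0.90. The knockdown library was lower in all 3 numbers for 27 of 37 genes with vehicle (31.4% of all genes) and for 31 with TGF-β (29.9%), and higher in all 3 for 2 and 0. The ratio of H1f0 itself was -1.36, -1.50 and -2.14 without TGF-β, and under it -1.75, -1.74 and -2.46, on the same scale, the lowest in number 3 under both treatments. For TGF-β the median ratio was -0.40, -0.18 and -0.30 after scramble siRNA, and after knockdown -0.42, -0.67 and -0.54. It was lower in all 3 numbers for 26 of 37 genes in scramble cells (31.5% of all genes) and for 33 in knockdown cells (31%).

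**Figure D5:**
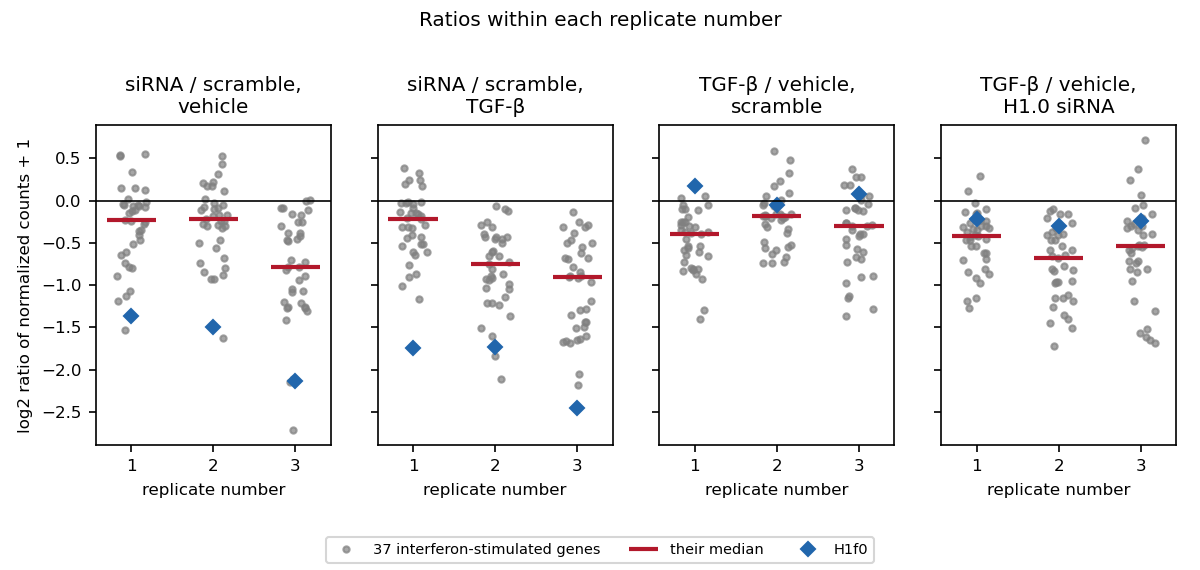
Each grey point is the log2 ratio of normalized counts + 1 of 1 of the 37 genes between 2 libraries of the same replicate number, the red line is the median of the 37 and the blue diamond is H1f0, for the 4 comparisons. The siRNA medians run from -0.22 in number 1 to -0.78 (vehicle) and -0.90 (TGF-β) in number 3, and the H1f0 ratio is also the lowest in number 3.

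The interferon genes themselves were at or near 0. Of 19 ligand genes, 16 had no count in any of the 12 libraries, Ifna2 had 1 count in all, and Ifnb1 and Ifnz passed the count minimum. Ifnb1, the fibroblast interferon, had normalized counts of 5.4, 1.2 and 0.0 in scramble cells with vehicle, 0.0, 1.4 and 0.0 with TGF-β, 2.2, 0.0 and 0.0 in knockdown cells with vehicle and 1.6, 0.0 and 0.0 with TGF-β. Here a library at 0 allows up to 3 counts, so a difference in Ifnb1 was not detectable at this depth. Ifnz, a relative of the interferon α genes, was between 2.8 and 23.6 over the 12 libraries. Its groups overlapped in all 4 comparisons, and its adjusted p was from 0.28 to 0.92.

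The receptors and kinases upstream had siRNA calls in the opposite direction. Of 9 such genes 3 were called higher and none lower with the siRNA with vehicle, and 4 higher and none lower with TGF-β, shares of 33.3% and 44.4% against 17.4% and 17.6% of all genes. Without the block 1 and 3 were called higher. Tyk2, a kinase of the type I receptor, had a log2 fold change of 0.31 (SE 0.06, adjusted p = 0.001) with vehicle and 0.58 (SE 0.06, adjusted p = 1.5e-05) with TGF-β, and without the block its vehicle call was lost (adjusted p = 0.013). Il10rb, the shared chain of the interferon λ and IL-10 receptors, had one of 0.69 (SE 0.07, adjusted p = 1.2e-05) and 0.72 (SE 0.07, adjusted p = 9.5e-06). With TGF-β 6 were called lower in scramble cells and 4 in knockdown cells, Ifngr1 among them (-0.97 and -0.63), and none higher. The lower calls are 66.7% and 44.4% of the 9 genes, against 13% and 12.6% of all genes. Without the block 5 and 1 were called lower.

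Of 6 other STAT and IRF factors, Irf1 and Stat3 were called higher with the siRNA under both treatments and none lower. These are 33.3% of the list each time, against 17.4% and 17.6% of all genes. Without the block 2 were called higher under each treatment. Irf1, a factor of interferon γ responses, had a log2 fold change of 0.72 (SE 0.07, adjusted p = 1.8e-05) with vehicle and 0.60 (SE 0.07, adjusted p = 6.9e-05) with TGF-β, and was called without the block too (adjusted p = 8.4e-05 and 0.00029). For TGF-β against vehicle 2 of the 6 were called lower in scramble cells and 3 in knockdown cells, and none higher. The lower calls are 33.3% and 50% of the list, against 13% and 12.6% of all genes, and 2 and 2 without the block. Irf1 (-0.45 and -0.57) and Irf2 (-0.48 and -0.54) were among them in both cell states. Among 16 adaptors and further sensors 6 were higher and 2 lower with the siRNA with vehicle, and 5 and 4 with TGF-β. These shares are 37.5% and 12.5%, then 31.25% and 25%, against 17.4% and 16.2%, then 17.6% and 16%, of all genes. Without the block the counts were 5 and 0, then 4 and 1. Traf6, a ligase of Toll-like receptor signalling, led the higher calls (0.76 and 0.93). Mb21d1, which encodes the DNA sensor cGAS, was called lower under TGF-β (-1.02, SE 0.11, adjusted p = 3e-05). Mavs, the adaptor of RIG-I and MDA5, was lower by little there (-0.26, SE 0.06, adjusted p = 0.0047, and 0.011 without the block). Of 7 feedback inhibitors 1 was higher and 1 lower with vehicle, and 1 was lower with TGF-β, and without the block the 1 higher call alone was made. Each of these calls is 14.3% of the list, against 17.4% of all genes higher and 16.2% lower with vehicle and 16% lower with TGF-β.

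A wider list of 79 other interferon-stimulated genes had 77 that were tested. With the siRNA 11 were called higher and 21 lower with vehicle (median -0.24), and 6 and 39 with TGF-β (median -0.46). The lower calls are 27.3% and 50.6% of the list, against 16.2% and 16% of all genes. With TGF-β 3 were higher and 30 lower in scramble cells (median -0.39), and 2 and 48 in knockdown cells (median -0.65), so the lower calls are 39.0% and 62.3% of it, against 13% and 12.6% of all genes. Lgals3bp, a secreted glycoprotein, was at 22082, 17029 and 12068 normalized counts in scramble cells with vehicle and 5377, 4501 and 2969 in knockdown cells. It was called with and without the block (-1.99, SE 0.10, adjusted p = 3e-07, and 0.00029 without). Ifitm2, which blocks virus entry, went the other way (0.98, SE 0.07, adjusted p = 1.1e-06). Without the block the lower calls in this list were 7, 9, 3 and 6, or 9.09%, 11.7%, 3.90% and 7.79%, near the 11.2%, 11.3%, 7.94% and 6.6% of all genes or below them.

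NF-kB targets answer to the same sensors. Of 22 such genes, the siRNA gave 2 higher calls and 1 lower with vehicle (9.09% and 4.55%, against 17.4% and 16.2% of all genes). Under TGF-β the siRNA gave 4 higher and 3 lower calls (18.2% and 13.6%, against 17.6% and 16%), and 2 and 1 without the block. The lower gene with vehicle was the neutrophil chemokine Cxcl5 (-3.11, SE 0.40, adjusted p = 8.8e-05 with vehicle). With TGF-β 8 were lower in scramble cells and 10 in knockdown cells, and 1 was higher in each, Il6. The lower calls are 36.4% and 45.5% of the list, against 13% and 12.6% of all genes. The higher call is 4.55%, against 15.4% and 14.2%. Without the block 3 and 2 were lower.

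The cells carried the markers of fibroblasts, with 10 of 10 marker genes tested and a summed level from 848454 to 1111088 normalized counts. Single fibroblast markers were called in both directions, 2 higher and 4 lower with the siRNA with vehicle, 3 and 5 with TGF-β, and for TGF-β itself 1 and 6 after scramble siRNA, then 2 and 6 after knockdown. Without the block these were 2 and 1, 1 and 3, 1 and 3, and 2 and 5. With the block the shares were 20% and 40%, 30% and 50%, 10% and 60%, and 20% and 60%. Those of all genes were 17.4% and 16.2%, 17.6% and 16%, 15.4% and 13%, and 14.2% and 12.6%. Thy1, a surface glycoprotein, was lower with the siRNA (-2.15 and -2.90), as was the factor Tcf21 (-0.79 and -1.35), and the receptor Pdgfra was lower with TGF-β (-1.45 and -2.08). In the other direction, Dcn was called higher with the siRNA under both treatments (0.50 and 0.85). Col1a1 was called higher with TGF-β in both cell states (0.47 and 0.45). Markers of macrophages, which also express interferon-stimulated genes, were present too, all 14 tested. Their sum was from 27752 to 30728 in scramble cells with vehicle, 20544 to 22556 with TGF-β, 25616 to 27407 in knockdown cells with vehicle and 14428 to 22080 with TGF-β. Knockdown libraries lay below scramble libraries with vehicle and overlapped them with TGF-β. Much of this sum is Lyz2, at 15746, 14982 and 15694 in scramble cells with vehicle and 11799, 11069 and 11696 in knockdown cells with vehicle. The median siRNA log2 fold change of the 14 genes was 0.13 with vehicle and 0.05 with TGF-β, so the lower sum does not stand for the whole list. Single macrophage markers were called in both directions with the siRNA, 3 higher and 2 lower with vehicle and 2 higher and 4 lower with TGF-β. These shares are 21.4% and 14.3%, then 14.3% and 28.6%, against 17.4% and 16.2%, then 17.6% and 16%, of all genes. Adgre1, the macrophage marker F4/80, was called higher under both treatments (0.92 and 0.51), and C1qb, a complement subunit, lower (-0.72 and -0.97). With TGF-β 6 were called lower in scramble cells and 9 in knockdown cells, and none higher (42.9% and 64.3%, against 13% and 12.6% of all genes). Without the block the siRNA calls were 2 higher and 1 lower with vehicle and 0 and 2 with TGF-β, and the TGF-β calls 3 and 5 lower. Fewer cells of a type and less RNA per cell cannot be told apart in bulk libraries, and the part of macrophages, or of a change in the fibroblasts, in the results was not tested.

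Markers of dendritic cells and lymphocytes summed to between 152 and 329 normalized counts in scramble libraries and 71 and 131 in knockdown libraries, with 3 of 11 tested and Siglech, Cd3e and Ncr1 at 0 in every library. Itgax, the integrin CD11c of dendritic cells and macrophages, was called lower with the siRNA under both treatments (-1.32 and -1.11), with and without the block. Endothelial markers summed to between 2017 and 3100 in scramble cells with vehicle and 1295 and 1639 in knockdown cells with vehicle. Of the 7 endothelial markers, Tek was the 1 called with the siRNA with vehicle, and it was lower. Tek was at 2106.3, 1631.8 and 1454.2 in scramble cells with vehicle and 514.8, 460.5 and 332.0 in knockdown cells with vehicle. The median siRNA log2 fold change of the 7 genes was -0.005 with vehicle, so the lower sum does not stand for the whole list. Cardiomyocyte markers summed to between 2303 and 2571 and between 273 and 319 in the same groups, most of it Tnnt2, which was called lower with the siRNA (-3.30, SE 0.12, adjusted p = 8.2e-08). The part of these cells was not tested either.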

How the data were processed

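RNA-seq was measured in 12 libraries of the 4 groups, 3 in each. The authors removed ribosomal RNA and quantified paired-end reads with Salmon on an mm10 index built from Ensembl transcripts. They deposited, for each transcript, an estimated count, which need not be whole, and a TPM value. The submitters' processing notes name Salmon, DESeq2 and mm10. Whether the counting used strand is not given in the sources used here.

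Estimated counts were summed per gene of GENCODE M21 on GRCm38 (115973 of 117135 transcripts matched, 99.54% to 99.6% of the counts of a library) and rounded. All 12 libraries entered 1 edgeR quasi-likelihood fit (edgeR 4.0.16 under R 4.3.3) with TMM scaling and the replicate number as a block. It held the 18028 genes that reached 10 counts in total, p-values were Benjamini-Hochberg adjusted over all of them, and 0.01 was the threshold for a call. The SE is the fold divided by the square root of F. Normalized counts are TMM-scaled to a mean library of 26853207 counts. A count of 0 allows up to 3 counts in that library, for counting error only. TPM values of Adar transcripts and of gene levels were used as deposited. The test was tried on simulated counts first.

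Over 11453 genes with a mean normalized count of at least 100, deviations of libraries of the same number correlated at 0.08 to 0.593 (median 0.463, 18 pairs), and between numbers at -0.559 to 0.289. The 1 pair under 0.1 was that of number 1 between siRNA and scramble with vehicle, so the numbers pair the samples in 3 of the 4 comparisons by the rule of 0.1 and miss it there. The block was kept in all, and the fit without it stands beside the counts of the members and of the other lists. No 2 replicates agreed within sampling noise.

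The members, the gene lists, the tests and the alternatives were chosen with earlier results of these data known. A further factor of the STAT and IRF list is not reported here. Values per library are given for members called in any comparison with a mean of at least 100 in a group, the sensors, 3 transcription factors and H1f0, and of each other list up to 2 genes per direction and comparison with the lowest adjusted p. Alternatives were limma-voom (limma 3.58.1), DESeq2 1.42.0, other size factors and filters, thinning, a transcript length offset, a threshold of 0.05 and leaving out libraries.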

Additional observations from a re-analysis of the deposited data

Results flagged for a closer look

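For 3 genes the libraries of every replicate number lay on 1 side under 1 condition and on the opposite side under the other, in part by very little. Isg15 was higher with TGF-β in all 3 numbers of scramble cells and lower in all 3 of knockdown cells, and its interaction was -0.62 (SE 0.24, adjusted p = 0.2 by edgeR's quasi-likelihood test). Ifi35 was higher with the siRNA in all 3 numbers with vehicle and lower in all 3 with TGF-β, with an interaction of -0.32 (SE 0.09, adjusted p = 0.091). Dtx3l did the same, with an interaction of -0.29 (SE 0.09, adjusted p = 0.11). In number 3 with vehicle both were level, at 991 against 989.9 normalized counts for Ifi35 and 1759 against 1755 for Dtx3l. The difference was thus tested for each and did not pass. Such opposite directions were found for 3.77% of all genes for TGF-β and 3.22% for the siRNA.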

How the results depend on the processing

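Without the replicate block the lower calls were 1 for the siRNA with vehicle, 1 for it with TGF-β, 0 for TGF-β in scramble cells and 1 in knockdown cells, in place of 12, 22, 8 and 20 with the block, and 59 single-gene calls of the 64 (H1f0 included) were lost. Every library correlated best with its own number in 35 of 36 comparisons with the libraries of another group. At an adjusted p under 0.05 the lower calls were 19, 29, 16 and 25. DESeq2 gave 15, 28, 11 and 23, and limma-voom, other size factors, filters, thinning and the length offset moved no count by over 1.5 times. Leaving out 1 library at a time gave 8 to 14, 15 to 27, 4 to 11 and 11 to 22 lower calls. Leaving out the 4 libraries of a replicate number, an alternative added after seeing the data, gave 9, 25, 4 and 12 lower calls without number 1, 7, 6, 3 and 6 without number 2, and 10, 21, 12 and 25 without number 3, and 1 higher call without number 3 for the siRNA with vehicle, Oasl2. Apart from the fit without the block, the share of all genes called in these settings was not taken, so nothing particular to the members is read from the moves. The cause of these moves was not tested. All 64 single-gene calls kept their direction under every alternative, and 32 of 126 uncalled folds changed sign under some alternative. With 3 libraries a group and a spread tied to the replicate number, the calls rest on the block, and genes at low counts such as Oasl1 and Mx1 have wide errors.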
